A study of Mus musculus with 4 samples.

Results

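Transcripts of the Polycomb repressive complexes were examined in mouse T cells through 10 genes, out of 50600 genes counted in every library. The genes were taken by name: Ezh1, Ezh2, Eed, Suz12 and Jarid2 of Polycomb repressive complex 2 (PRC2), and Bmi1, Ring1, Rnf2, Cbx7 and Cbx8 of Polycomb repressive complex 1 (PRC1). All 10 were found by symbol. The material was RNA from primary T cells of the mouse strain C57BL/6NJ, in 4 libraries that the labels number as biological replicates 1 to 4 of the only group. No treatment, mutation or transgene is given in the labels, the sex is entered as not collected and the age as unknown. The names inside the file headers add that the cells were Th0 cells, activated T helper cells not steered to an effector type, at 48 h. With 1 group there was no contrast between conditions, so levels, ratios between genes and the spread over the 4 replicates are described.

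Polycomb proteins keep genes silent by modifying histones. PRC2 places methyl groups on lysine 27 of histone H3: EZH1 or EZH2 carries out the reaction, and EED and SUZ12 are needed for it. PRC1 attaches ubiquitin to lysine 119 of histone H2A through RING1 or RNF2 (also called RING1B), joined to a PCGF protein such as BMI1. Canonical PRC1 also holds a CBX protein, which binds methylated lysine 27, and a PHC protein, while variant PRC1 holds RYBP or YAF2 in place of CBX. In T helper cells EZH2 is known for restraining cytokine genes of effector types other than the current one.

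The libraries held 56904311, 45110199, 127755788 and 53379135 counted read pairs in replicates 1 to 4, a 2.83-fold range, and a count of 3 stood for 0.0527, 0.0665, 0.0235 and 0.0562 CPM (counts scaled to the total of the library). All 8 T cell markers were above 1 CPM, with a summed level of 4971 to 5072 TPM (the same scaling after division by exon length). Of the CD8 markers, Cd8b1 was above and Cd8a below 1 CPM. Summed levels of the other lists were 3.05 to 5.77 TPM for 6 B cell markers, 2.62 to 3.55 TPM for 6 myeloid markers and 0.0202 to 0.0864 TPM for 4 NK markers. They were 0.278 to 1.24 TPM for 6 erythroid and platelet markers and 18.5 to 20.02 TPM for 6 stromal and endothelial markers, most of it Pecam1 at 13.8 to 16.2 TPM. In those lists Adgre1 (myeloid), Pecam1, Pdgfrb and Epcam were above 1 CPM. Lyz2, Klra8, Hbb-bs, Pf4, Gp9 and Cdh5 were at 0 in all 4 libraries. The labels enter 1 donor for the 4 libraries, yet the libraries stood apart in genes of the sex chromosomes. Xist, the RNA of the inactive X chromosome, had 708.4, 762.9, 0.853 and 1.95 CPM in replicates 1 to 4, and the Y-linked Uty had 0.0703, 0.0443, 33.7 and 34.0 CPM. Both genes were chosen after their values were seen. Neither labels nor headers state what separates the replicates, so p-values measure the spread between these 4 libraries.

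All 10 Polycomb genes were transcribed well above 1 CPM in every library. The level test was limma's moderated test of log2(CPM + 0.1) against 1 CPM over all 23365 genes with a count, and its Benjamini-Hochberg adjusted p lay between 3.15e-18 for Ezh2 and 2.79e-11 for Cbx8. Of all genes tested, 47.4% were called above 1 CPM and 48.3% below, so a place above that line was common to 11081 genes. The genes tested included non-coding ones: their median was 0.902 CPM, beside 18.1 CPM over the protein-coding genes with a count. The share above 1 CPM among protein-coding genes alone was not counted, so no excess over 47.4% is read for Polycomb genes or the enzymes below. The median over the 10 genes was 55.1 TPM, beside 42.8 TPM over 30 other Polycomb subunits and 14.2 TPM over the 15076 protein-coding genes with a count. Levels of different genes are compared below in TPM, with exon lengths as the file headers give them, and in CPM only where that is stated. In bulk RNA, fewer expressing cells and less RNA per cell cannot be told apart.

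The order of mean TPM was Suz12, Ezh2, Eed, Cbx7, Bmi1, Rnf2, Ring1, Jarid2, Ezh1 and Cbx8. The 3 core genes of PRC2 led, and the other PRC2 methyltransferase gene, Ezh1, was next to last. Each gene exceeded the following one in 4 of 4 libraries, with ranges that did not overlap, except Bmi1 and Rnf2. For those pairs the exact two-sided sign-flip permutation test over 4 libraries gave p = 0.125, the smallest p that 4 libraries allow, so that test could not reach 0.05 for any of them. Bmi1 and Rnf2 overlapped, with a mean log2 ratio of 0.04 ± 0.08 (SD, n = 4) and an exact permutation p of 0.375. The step between Ring1 and Jarid2 was small, at a mean log2 ratio of 0.10 ± 0.06. Without length correction, in CPM, Jarid2 stood above Ring1 and Cbx7 above Eed, and Suz12 and Ezh2 were nearly level.

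**Figure D1:**
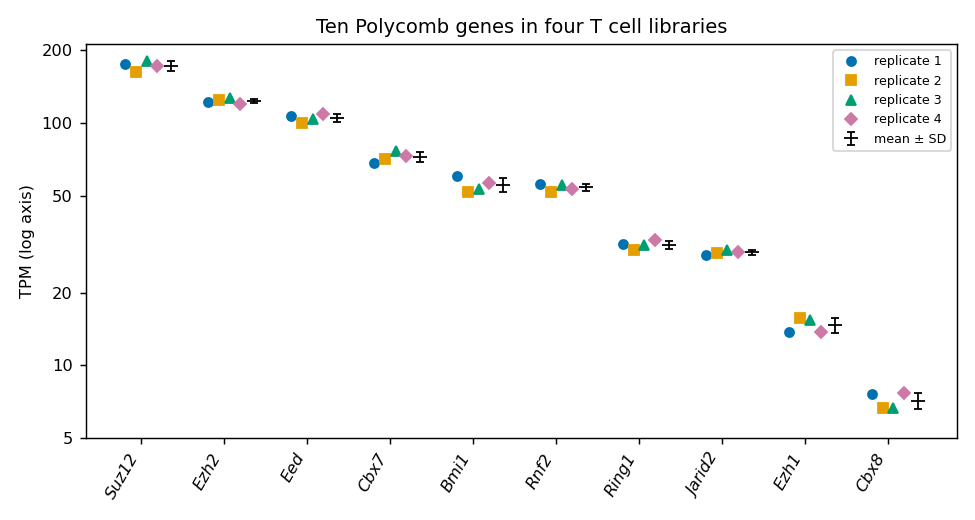
Level of each of the 10 Polycomb genes in TPM on a log axis, ordered by mean; each symbol is 1 replicate and the cross gives the mean ± SD of 4. Suz12 is highest at 172.6 TPM and Cbx8 lowest at 7.16 TPM, and only Bmi1 and Rnf2 overlap with a neighbour.

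The core of PRC2 was abundant. Suz12, the scaffold subunit, had 176.2, 162.6, 180.1 and 171.6 TPM in replicates 1 to 4, a mean of 172.6 ± 7.55 TPM (SD, n = 4) that ranked 1133rd of 15076 protein-coding genes. Replicate 2 was lowest and replicate 3 highest. Ezh2 had 122.8, 124.8, 126.7 and 120.1 TPM, a mean of 123.6 ± 2.82 TPM and rank 1703. Its 4 values lay within a narrow band, and its coefficient of variation (CV) in CPM was 1.85%. Eed, whose product binds trimethylated lysine 27 and stimulates the enzyme, had 107.6, 99.8, 103.9 and 109.5 TPM, a mean of 105.2 ± 4.26 TPM. Replicates 1 and 4 were the higher pair for Eed.

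In TPM the 3 core genes lay within less than 1 log2 unit of each other, while in CPM the log2 ratio was 1.04 for Ezh2 over Eed and 1.08 for Suz12 over Eed. For Suz12 over Ezh2 it was only 0.05 in CPM. In replicate 2 Ezh2 was the higher of the pair, at 243.5 CPM beside 235.0 CPM for Suz12. The lead of Suz12 over Ezh2 thus depended on the length correction. In TPM Suz12 exceeded Ezh2 1.395-fold, a mean log2 ratio of 0.48 ± 0.07, in 4 of 4 libraries. Ezh2 exceeded Eed 1.18-fold (0.23 ± 0.09) in 4 of 4. Suz12 exceeded Eed 1.64-fold (0.71 ± 0.06) in 4 of 4, and for each of these pairs the exact permutation p was 0.125, the smallest possible. The Ezh1 and Ezh2 levels summed to 138.3 ± 3.76 TPM, between Eed and Suz12 in TPM. In CPM Ezh1 had 31.8, Ezh2 240.5 and Suz12 248.7, so that the sum lay above Suz12.

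Of the methyltransferase genes, Ezh2 had by far the higher transcript level. Ezh1, known as the form that remains in resting and non-dividing cells, had 13.8, 15.7, 15.5 and 13.7 TPM, a mean of 14.7 ± 1.05 TPM and rank 7482. Replicates 2 and 3 were the higher pair, the reverse of Eed. Ezh2 exceeded Ezh1 8.40-fold in TPM, a mean log2 ratio of 3.07 ± 0.08 with a range of 2.99 to 3.14, in 4 of 4 libraries with an exact permutation p of 0.125. Ezh2 thus held 89.4 ± 0.504% of the summed TPM of both genes, and Ezh1 held 10.6%. Jarid2, an accessory subunit that helps bring PRC2 to chromatin, had 28.5, 29.2, 30.0 and 29.5 TPM, a mean of 29.3 ± 0.647 TPM. It had the smallest CV of the 10 genes, 1.52% in CPM. Suz12 exceeded Jarid2 5.87-fold (2.55 ± 0.06 log2) in 4 of 4 libraries, with an exact permutation p of 0.125.

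On the mm10 assembly, Ezh2 lies at chr6:47530139-47595341 on the minus strand and Ezh1 at chr11:101191115-101226463 on the minus strand. Suz12 lies at chr11:79993106-80034123 on the plus strand and Eed at chr7:89954654-89980983 on the minus strand, and Jarid2 at chr13:44729474-44921643 on the plus strand. Their identifiers in the files are ENSMUSG00000029687.16 for Ezh2, ENSMUSG00000006920.14 for Ezh1, ENSMUSG00000017548.15 for Suz12, ENSMUSG00000030619.9 for Eed and ENSMUSG00000038518.15 for Jarid2. Start regions are printed for Suz12 and Ezh2, the pair with the highest levels, and for Ezh1, the low paralog of Ezh2. They are RefSeq windows of 300 bases on GRCm38.p6, from 250 bases before to 50 after the RefSeq gene start, 5′ to 3′ on the gene's strand. That start equals the outer bound given in the files for Suz12 and Ezh1, and lies 311 bases inside it for Ezh2. The windows are chr11:79992856-79993155 on the plus strand for Suz12, chr6:47594981-47595280 on the minus strand for Ezh2 and chr11:101226414-101226713 on the minus strand for Ezh1. Capitals mark a match to the E2F motif letters TTTCCCGC, TTTCGCGC, TTTGCCGC or TTTGGCGC, searched on both strands.
Suz12: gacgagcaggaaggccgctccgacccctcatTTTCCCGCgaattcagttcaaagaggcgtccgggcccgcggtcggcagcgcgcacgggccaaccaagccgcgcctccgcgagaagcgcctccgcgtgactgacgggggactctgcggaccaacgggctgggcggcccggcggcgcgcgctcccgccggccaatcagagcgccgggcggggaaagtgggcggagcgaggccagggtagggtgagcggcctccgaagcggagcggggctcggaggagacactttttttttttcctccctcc
Ezh2: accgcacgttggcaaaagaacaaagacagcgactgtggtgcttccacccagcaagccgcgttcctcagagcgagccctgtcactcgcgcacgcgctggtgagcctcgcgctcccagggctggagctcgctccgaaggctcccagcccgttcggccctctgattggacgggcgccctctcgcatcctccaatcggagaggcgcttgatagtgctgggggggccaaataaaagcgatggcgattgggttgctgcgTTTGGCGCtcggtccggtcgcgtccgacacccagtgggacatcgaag
Ezh1: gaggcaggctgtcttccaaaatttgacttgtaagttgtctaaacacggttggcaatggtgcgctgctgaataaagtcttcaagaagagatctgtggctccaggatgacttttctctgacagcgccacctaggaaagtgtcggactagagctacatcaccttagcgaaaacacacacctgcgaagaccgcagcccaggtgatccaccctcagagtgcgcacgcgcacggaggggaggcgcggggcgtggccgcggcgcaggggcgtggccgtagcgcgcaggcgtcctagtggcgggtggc

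E2F proteins bind genes of the cell cycle, and Ezh2 is known as one of their targets. A match was found in 2 of 11 windows of the 10 genes (Jarid2 has 2 windows): TTTGGCGC beginning 3 bases after the RefSeq start of Ezh2 and TTTCCCGC beginning 219 bases before that of Suz12, each on the gene's own strand. Of all 32851 RefSeq windows of this length, 744 (2.27%) held such letters. Each motif form contains a CpG, and the windows of the 10 genes held more CpG than the median window. That share is therefore not a like baseline, and no enrichment is read from it. A match is a description of these letters and not a bound site. The windows of the 10 genes were rich in CpG, with 17 to 41 CpG each and a median of 24, beside a median of 7 over all windows. Their GC content was 54.7% to 74%, beside a median of 52.7%. Not all windows lie at the outer bound of the counted gene. The RefSeq start lies 38473 bases inside it for Cbx7, and 1300 and 1797 bases inside it for Jarid2.

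Accessory subunits of PRC2 were also transcribed, with 8 of 8 above 1 CPM by limma, against 47.4% of all genes, coding and non-coding. Rbbp7 and Rbbp4 encode histone-binding proteins that PRC2 shares with other chromatin complexes. Rbbp7 had 546.4 ± 11.2 TPM (SD, n = 4), above every core gene, and Rbbp4 had 166.6 ± 2.10 TPM, close to Suz12 in TPM. In CPM, without length correction, Rbbp7 and Rbbp4 had 463.0 and 424.5, both above Suz12 at 248.7. Of the subunits that mark the JARID2-containing form, Aebp2 had 112.8 ± 5.07 TPM, and it exceeded Jarid2 in each library. Of the other form, which holds a Polycomb-like protein, Mtf2 had 66.0 ± 2.43 TPM, Phf19 had 44.4 ± 3.85 TPM and Phf1 had 18.3 ± 0.687 TPM. Epop, which joins that form and is best known from embryonic stem cells, had 107.7 ± 6.89 TPM. Lcor, also a subunit gene of that form, was lowest at 4.68 ± 0.319 TPM.

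**Figure D2:**
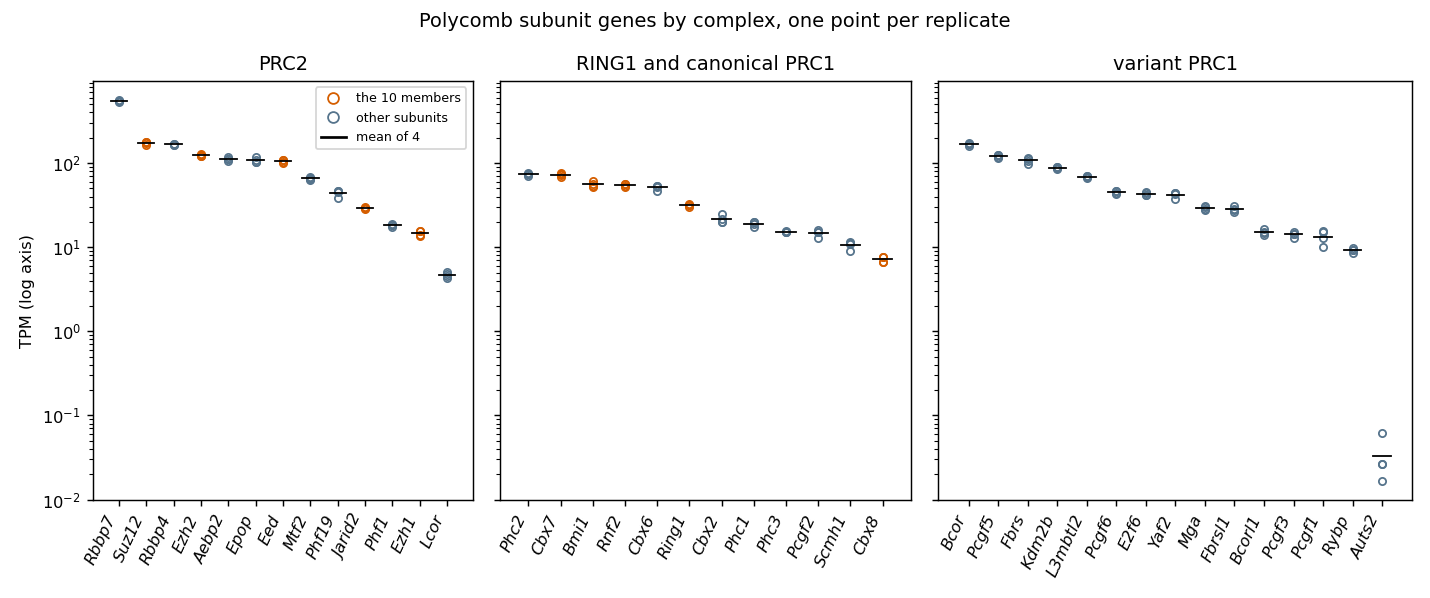
Levels in TPM (log axis) of PRC2 genes, of RING1-type and canonical PRC1 genes and of variant PRC1 genes; each circle is 1 replicate, each line the mean of 4, with the 10 studied genes in orange. Rbbp7 is highest at 546.4 TPM and Auts2 lies apart at 0.0326 TPM, while Cbx8 is the lowest of the canonical PRC1 genes shown.

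In the catalytic pair of PRC1, Rnf2 exceeded Ring1. Rnf2 (ENSMUSG00000026484.13, chr1:151458004-151500955, minus strand) had 56.2, 52.0, 55.8 and 53.3 TPM, a mean of 54.3 ± 2.02 TPM. Ring1 (ENSMUSG00000024325.8, chr17:34020792-34024680, minus strand) had 31.7, 30.1, 31.4 and 33.0 TPM, a mean of 31.5 ± 1.19 TPM. No library of Ring1 came near the lowest of Rnf2. The mean log2 ratio was 0.78 ± 0.06, a 1.72-fold difference in 4 of 4 libraries with an exact permutation p of 0.125, and Rnf2 held 63.3 ± 1.02% of the summed TPM. The sum of both, 85.9 ± 2.64 TPM, was below that of Ezh1 and Ezh2.

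Bmi1 (ENSMUSG00000026739.13, chr2:18677018-18686629, plus strand), a partner of RING1 and RNF2 known for repressing the Cdkn2a locus, had 60.6, 52.2, 53.7 and 56.8 TPM, a mean of 55.8 ± 3.72 TPM. Replicates 1 and 4 were the higher pair, and the CV of 7.15% in CPM was the largest but for Cbx8. Its paralog Pcgf2 (also called Mel18) had 14.8 ± 1.36 TPM. Bmi1 exceeded it 3.77-fold, a mean log2 ratio of 1.92 ± 0.23, in 4 of 4 libraries with an exact permutation p of 0.125. These are the PCGF proteins of canonical PRC1. Over all 6 PCGF genes, however, Pcgf5 of variant PRC1 held the most, 45.8 ± 2.19% of 264.6 ± 3.71 TPM, while Bmi1 held 21.1 ± 1.17% and Pcgf6 held 17.1 ± 0.494%. Pcgf2, Pcgf3 and Pcgf1 held 5.58%, 5.37% and 5.06%. In CPM, without length correction, Bmi1 was first at 30.5% and Pcgf5 next at 27.7%, Pcgf3 held 18.6% and came before Pcgf6 at 13.01%, and Pcgf2 and Pcgf1 held 7.17% and 3.03%. A processed copy, Gm5946, matched the Bmi1 transcript at 96.99% identity over 74.0% of its length and had 4, 3, 2 and 0 counts. Reads that fit both could be lost from Bmi1, depending on how the counting treated them.

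Of the 4 CBX genes analysed here, Cbx7 was the highest and Cbx8 the lowest. Cbx7 (ENSMUSG00000053411.16, chr15:79915807-79971119, minus strand) had 68.5, 71.4, 77.0 and 73.6 TPM, a mean of 72.6 ± 3.56 TPM. Cbx8 (ENSMUSG00000025578.9, chr11:119036305-119040969, minus strand) had 7.61, 6.67, 6.66 and 7.69 TPM, a mean of 7.16 ± 0.570 TPM, from 467, 323, 900 and 440 counts. Replicates 1 and 4 were the higher pair for Cbx8, and replicates 3 and 4 for Cbx7. The mean log2 ratio of Cbx7 over Cbx8 was 3.33 ± 0.16, a 10.04-fold difference in 4 of 4 libraries, with an exact permutation p of 0.125. Cbx8 remained far over the floor, with a lowest value of 7.04 CPM.

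The 4 CBX genes summed to 152.9 ± 7.52 TPM. Cbx7 held 47.5 ± 0.378% of it, Cbx6 held 33.7 ± 1.11%, Cbx2 held 14.1 ± 0.819% and Cbx8 held 4.69 ± 0.531%. Cbx6 and Cbx7, the higher pair, lie 81.1 kb apart on chromosome 15, while Cbx2 and Cbx8, the lower pair, lie 5.04 kb apart on chromosome 11.

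**Figure D3:**
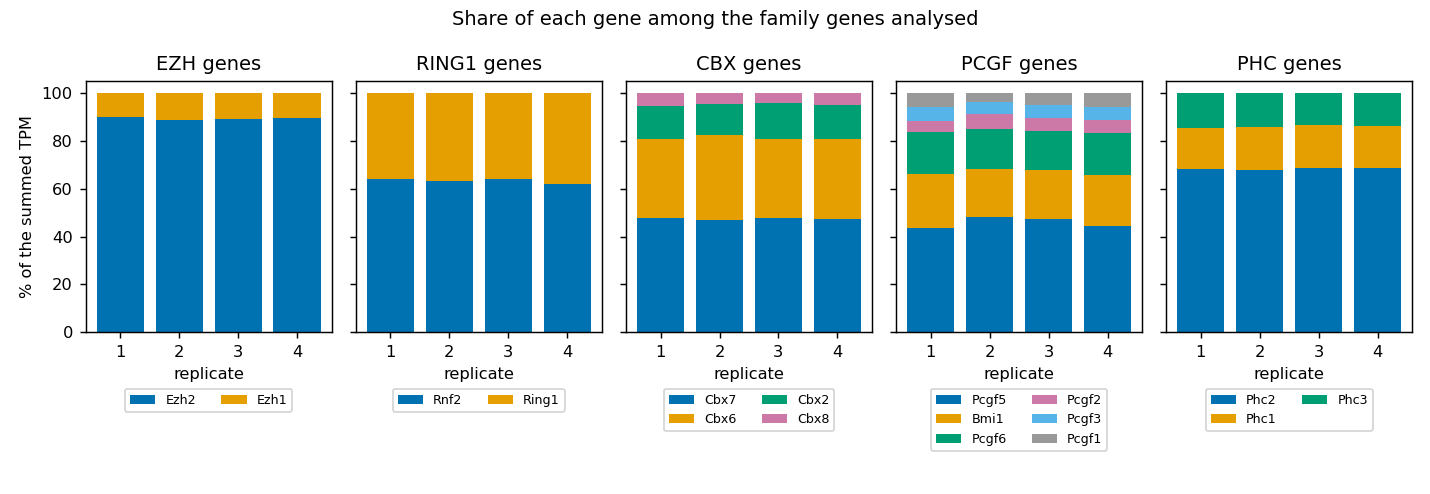
Share of each gene in the summed TPM of the family members analysed, in percent, with 1 bar per replicate. Ezh2 takes 88.8% to 89.9%, Rnf2 61.8% to 64.0%, Cbx7 47.1% to 47.9%, Pcgf5 43.5% to 48.0% and Phc2 67.9% to 68.8%, so the leading gene of each set is the same in the 4 libraries.

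The remaining canonical PRC1 subunits analysed were above 1 CPM in 7 of 7 cases by limma, against 47.4% of all genes, coding and non-coding. Of the PHC genes, whose products polymerise and bring PRC1 complexes together, Phc2 held 68.4 ± 0.406% of 108.4 ± 3.58 TPM, Phc1 held 17.5% and Phc3 held 14.1%. In CPM the last pair changed places, with 11.3% for Phc1 and 30.0% for Phc3. Scmh1, another partner, had 10.6 ± 1.15 TPM. Variant PRC1 had 14 of 15 subunits above 1 CPM. Bcor, a subunit of the PCGF1 form, was highest at 168.5 ± 5.85 TPM, although Pcgf1 itself had 13.4 ± 2.59 TPM. Bcor was next to Suz12 in TPM, but in CPM it had 425.3 beside 248.7 for Suz12. Kdm2b, which brings that form to unmethylated CpG islands, had 88.4 ± 2.32 TPM. Yaf2 had 42.2 ± 3.39 TPM and its paralog Rybp 9.20 ± 0.538 TPM, with a smaller gap in CPM (23.0 and 12.7). Mga, E2f6 and L3mbtl2 of the PCGF6 form had 29.5 ± 1.33, 43.3 ± 1.60 and 68.9 ± 1.68 TPM. In CPM, without length correction, they had 131.6, 30.5 and 119.4, so that Mga came first. Auts2, a partner of PCGF3 and PCGF5 known from neurons, was the exception, with 10, 5, 22 and 22 counts and a limma adjusted p of 4.23e-05 below 1 CPM. Fbrs, its paralog, had 107.6 ± 7.31 TPM.

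None of the 10 genes was called as differing between replicates more than genes of like abundance. The test was edgeR's goodness of fit at the trended dispersion over 13279 genes, with Benjamini-Hochberg adjustment, and it called 56 genes, 0.422% of those tested. That total was 33 to 40 with 1 replicate left out (33 without replicate 1) and 873 with a common dispersion. It called 0 of 10 Polycomb genes, 0 of 10 at an unadjusted p under 0.05 where 5.80% of all genes passed, and DESeq2's dispersion outliers also held 0 of 10. At that background share a count of 0 says little about the 10 genes as a group. Their adjusted p was 1.00 in each case, and their biological CV from edgeR ranged from 4.16% for Jarid2 to 9.96% for Cbx8, beside a median of 6.53% over all genes. The CV in CPM was 1.52% to 8.48%, and for Cbx8 counting alone gives 4.64%. Cbx7 and Jarid2 were lower in replicates 1 and 2, which carry Xist, than in replicates 3 and 4, at 130.5 and 135.4 against 143.8 and 139.3 CPM for Cbx7 and 81.2 and 82.9 against 83.9 and 83.8 CPM for Jarid2. The other 8 genes did not split along that line. This grouping was chosen after the Xist values were seen. The share of all genes that split in this way was not counted, so no difference is read from these 2 genes. Of the 30 other subunits 29 were tested and 0 were called by edgeR or by DESeq2, while 2, Phf19 and Pcgf1, were under 0.05 in edgeR before adjustment. With a common dispersion, where 873 genes were called, Pcgf1 was called too (edgeR goodness of fit, adjusted p = 0.0489).

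**Figure D4:**
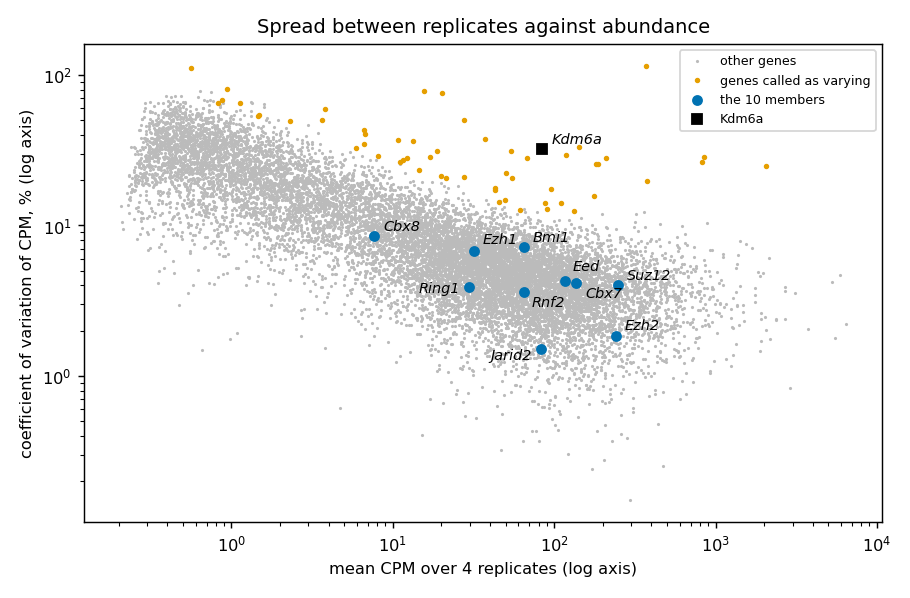
Coefficient of variation of CPM over 4 replicates, in percent, against mean CPM, both on log axes; grey points are genes tested, orange points the 56 called as varying by edgeR, blue points the 10 Polycomb genes and the square Kdm6a. The 10 genes lie between 1.52% and 8.48%, inside the grey cloud, and Kdm6a lies above it at 32.1%.

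The enzymes that act against Polycomb marks were transcribed as well. By limma 6 of 7 were above 1 CPM, against 47.4% of all genes, coding and non-coding. Kdm6a and Kdm6b encode the demethylases that remove methyl groups from lysine 27. Kdm6a, on the X chromosome, had 43.8, 46.6, 26.9 and 24.9 TPM in replicates 1 to 4, so that replicates 1 and 2 were high and replicates 3 and 4 low without overlap. It was the gene of this list called as varying, with an edgeR adjusted p of 3.43e-26. Kdm6b, on chromosome 11, had 37.9, 39.3, 40.3 and 43.2 TPM and was not called. The log2 ratio of Kdm6a over Kdm6b was therefore 0.21 and 0.25 in replicates 1 and 2, and -0.58 and -0.79 in replicates 3 and 4, with an exact permutation p of 0.5 over the 4. Uty, the Y-linked homolog of Kdm6a with little demethylase activity, ran the other way, with 4, 2, 4310 and 1814 counts. The replicates with high Kdm6a were those with Xist. The part in this difference of whatever sets those replicates apart was not tested.

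**Figure D5:**
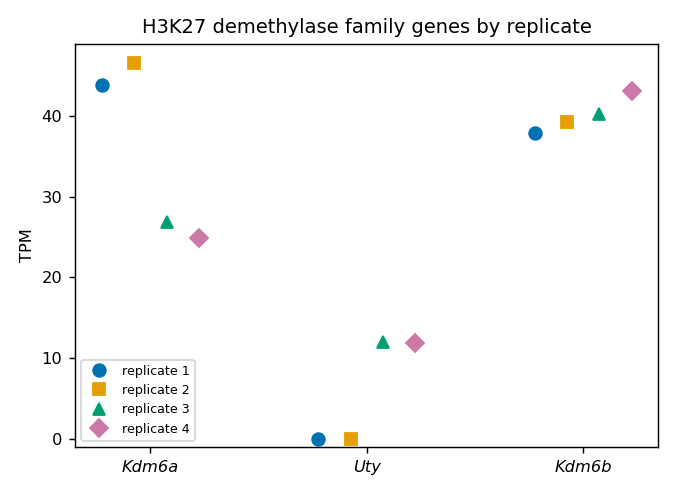
Level in TPM of Kdm6a, Uty and Kdm6b in each of the 4 replicates. Kdm6a has 43.8 and 46.6 TPM in replicates 1 and 2 and 26.9 and 24.9 TPM in replicates 3 and 4, Uty has 11.97 and 11.89 TPM in replicates 3 and 4 and at most 0.0245 TPM in the others, and Kdm6b lies between 37.9 and 43.2 TPM in all of them.

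The deubiquitinases opposing PRC1 were not called as varying. Bap1, which removes ubiquitin from lysine 119 of histone H2A, had 120.2 ± 3.44 TPM. That was near Ezh2 in TPM, but in CPM Bap1 had 164.0 beside 240.5 for Ezh2. Of its ASXL partners, Asxl1 had 89.1 ± 3.18 TPM and Asxl2 had 19.2 ± 0.461 TPM. Asxl3 had 0, 0, 0 and 3 counts and was below 1 CPM. Usp16, another deubiquitinase of the same site, had 30.8 ± 0.350 TPM.

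Classical target loci of Polycomb repression were at low levels. Cdkn2a, which encodes the cell cycle inhibitor p16INK4a and p19ARF, had 19, 24, 42 and 16 counts and was below 1 CPM, with a limma adjusted p of 0.000434. In TPM it had 0.971, 1.55, 0.975 and 0.876, above 1 TPM only in replicate 2. Per length it thus stood at about 1 TPM and was called in neither direction (limma adjusted p = 0.673). Its neighbour Cdkn2b, which encodes p15INK4b, had 12, 8, 9 and 0 counts and a limma adjusted p of 8.35e-06 below 1 CPM. Of 39 Hox genes, the classical targets in development, 0 were above 1 CPM (0 also at an unadjusted p under 0.05), 18 were below, 1 passed in neither direction and 20 had no count. Against these 18 of 19 Hox genes tested, 48.3% of all genes were called below. The undecided gene was Hoxb4, with 2.17, 1.33, 1.63 and 1.85 TPM from 93, 45, 154 and 74 counts and an adjusted p of 0.112 above 1 CPM. It passed above the line in 4 alternatives: with limma's voom, with weakly counted genes filtered out, in TPM and without replicate 2 (adjusted p 0.0451, 0.0233, 0.00697 and 0.0359). Hoxa6 was next at 0.324 ± 0.159 TPM, and the summed level of all Hox genes was 3.09 to 3.27 TPM.

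The protein-coding genes most like Ezh2 in level over the 4 libraries, by the smallest root mean square difference in log2 TPM, were Wdr26 (0.00854), Ap1b1 (0.0150) and Prps1l3 (0.0208). For Ezh1 they were Tert (0.0297), Tmem230 (0.0311) and Tmem175 (0.0356). Overlaps with other genes touched 5 of the 10 genes, always on the opposite strand, and the counting used strand. The largest was E230029C05Rik over 6.82% of the Eed exon bases, with 44, 22, 76 and 48 counts beside 6877, 5039, 14631 and 6529 for Eed. Trmt1l covered 3.83% of Rnf2, Gm26563 covered 3.60% of Suz12, Gm26625 covered 2.61% of Ezh2 and Apobec3 covered 1.54% of Cbx7.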

How the data were processed

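Gene-level RNA-seq of 4 mouse T cell libraries was used. The deposited files hold raw read-pair counts, which the authors made, per the file headers, with featureCounts 1.4.6-p4 over exons of GENCODE M13, with both ends mapped and strand option 2. The headers name STAR alignments and the labels the mm10 assembly. How multi-mapping reads were treated is stated in neither. Total RNA-seq is the assay name in the labels, but the protocol they link to is titled for polyA+ RNA. Symbols and biotypes came from GENCODE M21, which matched 50376 of 50600 genes (99.6%).

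From the deposited counts, CPM used the total of each library. TPM divided counts by the summed exon length in the headers, which covers all annotated transcripts of a gene and not the one expressed, before scaling. A pseudocount of 0.1 was used on log2 scales. No pair of libraries matched within counting noise (chi-square per degree of freedom 8.30 to 26.3), so none was treated as a library deposited more than once; this does not show that they are independent. Levels were tested with limma 3.58.1 (intercept only, trend) against 1 CPM in each direction, since edgeR's quasi-likelihood test takes no such null, over genes with a count. Variation used edgeR 4.0.16 on genes kept by filterByExpr, with TMM factors of 0.996 to 1.00, and DESeq2 1.42.0 as an alternative. Ratios used exact sign-flip permutation tests over libraries. Called means an adjusted p below 0.05. Transcript copies were searched with blastn 2.17.0+ at 95% identity or more. The tests were checked on simulated data.

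The members, gene lists and pairs were chosen with earlier results of these data known. The genes named were all members, all genes of the Polycomb, opposing enzyme and INK4 lists, the leading Hox genes, the 3 genes nearest in level to Ezh2 and to Ezh1, markers and genes overlapping a member. 1 item is not reported here. Counts of 3 or fewer and floors cover counting error only.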

Additional observations from a re-analysis of the deposited data

Results flagged for a closer look

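In 3 of 51 genes examined, 1 library lay far from the other 3 by Dixon's criterion, which chance alone meets in about 1 group in 20. None of the 10 Polycomb genes was among them. Rbbp4 had 434.5 CPM in replicate 1, and the other replicates were lower and close together. Asxl3 had 0.0562 CPM in replicate 4, from 3 counts, and 0 in the others. A gene with counts in a single library always meets the criterion, so the rate of 1 in 20 does not apply to Asxl3. Cdkn2a had 0.532 CPM in replicate 2, from 24 counts.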

How the results depend on the processing

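The 10 Polycomb genes stayed above 1 CPM in 10 of 10 cases and varying in 0 of 10 cases under every alternative run. Of 1555 recomputed values over 158 results, 1522 were classed as the same. For levels and variation this meant the same call, and for ratios the same sign. For counts of genes it meant a like size, and for shares a value within 1 SD of the one reported. In CPM in place of TPM the log2 ratio of Bmi1 over Rnf2 turned to -0.017 (p = 0.75, exact permutation test). That of Eed over Cbx7 turned to -0.23 and that of Ring1 over Jarid2 to -1.47. The shares of the leading genes became 88.3% for Ezh2, 68.7% for Rnf2, 51.6% for Cbx7 and 58.8% for Phc2. Pcgf5, which led its family in TPM, fell to 27.7% in CPM, behind Bmi1 at 30.5%. Without length correction, in CPM, the log2 ratio of Cbx7 over Cbx8 also moved to 4.15 and that of Suz12 over Jarid2 to 1.58. Genes below 1 CPM numbered 1183 where only genes kept by filterByExpr were fitted, since most low genes are then not tested. Genes varying between replicates numbered 873 with a common dispersion and 33 to 40 with 1 replicate left out: 33 without replicate 1, 37 without replicate 3 and 37 without replicate 4. Kdm6a was called under all 8 alternatives (adjusted p 2.83e-26 to 9.82e-09). Cdkn2a moved to a mean log2 level of 0.086 over 1 TPM, called in neither direction (limma adjusted p = 0.673). Over its alternatives the limma adjusted p was 5.74e-06 to 0.673. Hoxb4 fell to -0.60 against 2 CPM (limma adjusted p = 0.0102), and it passed above 1 CPM in the filtered fit, in TPM, with voom and without replicate 2 (adjusted p over all alternatives 0.00697 to 0.346). No paired analysis was possible because there is only 1 group. The sign-flip test of ratios cannot go below 0.125 with 4 libraries, and Cbx8, at 323 counts in the shallowest library, is the member most limited by depth.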
